A study of Mus musculus with 6 samples.

Results

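The genes described are the 4 ligands Pdgfa, Pdgfb, Pdgfc and Pdgfd and the 2 receptors Pdgfra and Pdgfrb of the platelet-derived growth factor (PDGF) family. They were taken by symbol from the deposited count table, in which 6 of 27998 genes are members. The family was described across classes of mouse lung cells gated on other genes, so no member took part in making a class. By the GENCODE vM21 annotation of GRCm38 all 6 are protein-coding. Pdgfa lies on chr5:138976014-138997370 (minus strand), Pdgfb on chr15:79995874-80014977 (minus strand), Pdgfc on chr3:81036416-81214040 (plus strand), Pdgfd on chr9:6168584-6378850 (plus strand), Pdgfra on chr5:75152292-75198215 (plus strand) and Pdgfrb on chr18:61045150-61085061 (plus strand).

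PDGFs are secreted dimers that bind receptor tyrosine kinases on mesenchymal cells. PDGF-A chains bind the alpha receptor; PDGF-B chains bind both receptors; PDGF-C acts mainly through the alpha receptor and PDGF-D mainly through the beta receptor, both after a protease removes an inhibitory CUB domain. In the lung, PDGF-A from epithelium is known for its part in forming alveolar myofibroblasts, and PDGF-B from endothelium for recruiting pericytes, the contractile cells that wrap capillaries.

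Lung cells of SMA-GFP;Tbx4cre;RosaTdTomato mice were sorted as Epcam-, CD31- and CD45- and profiled by droplet RNA sequencing from the 3′ end, with unique molecular identifiers (UMIs) that count each captured RNA molecule once. All mice thus carried a smooth muscle actin GFP reporter, Cre driven by Tbx4 (a gene of lung mesenchyme) and the Cre-dependent tdTomato (Tm) reporter. The labels name 6 samples. Cells positive for both reporters (SMA+Tm+), for Tm alone (SMA-Tm+) or for neither (SMA-Tm-) were taken from normal lung (day 0) and from lung 21 days into the response to bleomycin, which damages the organ and causes fibrosis. Each gate and day has 1 sample, and the number of mice behind each was not given by the labels.

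The table pools all cells, and the barcode suffixes 1 to 6 are not tied to any labelled sample. Days and gates were therefore not compared, the table was treated as 1 pooled sample, and no test was made. Suffixes 1 to 3 carried Y-linked UMIs and suffixes 4 to 6 carried Xist UMIs, so the suffixes also differ in the sex of the mice. Filtering left 9919 cells, which together held 34177581 UMIs (median per cell, 2699). In these cells Pdgfa had 1015 UMIs, Pdgfb 483, Pdgfc 357, Pdgfd 278, Pdgfra 5400 and Pdgfrb 1105. Levels are given as counts per 1000000 UMIs of a class (CPM), with exact Poisson 95% intervals in brackets. Ratios have exact conditional binomial intervals and shares of cells exact Clopper-Pearson intervals. All intervals cover counting error only, so no difference between classes has a replicate check. Among kept cells, 47 barcode sequences occurred under 2 suffixes, and leaving those cells out kept all 6 main ratios within their intervals.

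A cell was called mesenchymal at 3 or more UMIs of Col1a2 and Col3a1 together (2515 cells), mural at 2 or more of the genes Higd1b, Cox4i2 and Notch3 (46 cells), endothelial at 2 or more UMIs of Pecam1 and Cdh5 (594 cells) and leukocyte at 1 or more UMI of Ptprc (4273 cells). No gate was passed by 2202 cells, and 289 passed several. The mural gate took precedence over the mesenchymal one. The 23 cells that passed these 2 gates and no other were therefore counted as mural and are not among the 289. The labelled sort was against CD31 and CD45, whose genes are Pecam1 and Ptprc, so the endothelial cells and leukocytes in the table go against it. Mesenchymal cells came mostly from suffix 4 (1818 cells) and suffix 1 (546 cells). Marker lists divided them into 474 ductal myofibroblast-like, 763 Col13a1 fibroblast-like, 718 Col14a1 fibroblast-like and 72 mesothelial-like cells, with 41 Col15a1 fibroblast-like and 20 Adh7 fibroblast-like cells. These are ranges of a marker count: 394 of 2092 assigned mesenchymal cells rested on 2 markers. Another 423 were unassigned, of which 225 were tied between lists and 198 had under 2 markers. They remain among the other mesenchymal cells of the ratios below. Of all 2515 mesenchymal cells, 225 stood at the lowest collagen count of the gate. Of the leukocytes 1626 rested on 1 Ptprc UMI, and 104 endothelial cells stood at the lowest count of their gate. Among cells assigned to a subtype, 801 of 3682 leukocytes and 134 of 389 endothelial cells rested on 2 markers. No subtype was assigned to 591 leukocytes and 205 endothelial cells. The mural class rests on 46 cells, 32 of them of suffix 4. Of its 6 pericyte-list genes, 3 are the gate genes and lend the name no support. Of the other 3, Trpc6 had 153 CPM against 0 in mesenchymal cells, while Kcnj8 (142 against 142 CPM) and Abcc9 (131 against 139 CPM) were level with them. UMIs were found for 5 of 6 smooth muscle genes, which summed to 2706 CPM with Actg2 at 0. That list summed to 2107 CPM in ductal and 545 CPM in all mesenchymal cells, so it separates mural from ductal cells little. Ductal cells had 314 CPM of Kcnj8 and no Trpc6 UMI. In mural cells all 6 epithelial and all 4 mesothelial markers were at 0.

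For 3 members whose levels differed between these classes, the 250 bases before the RefSeq start (GRCm38.p6) are shown, with TATAAA in capitals; Pdgfb and Pdgfrb, which differed at least as sharply, are not shown. Pdgfra and Pdgfc separated Col13a1 from ductal cells in opposite directions, and Pdgfd was low in leukocytes. The windows are chr5:75152001-75152250 for Pdgfra, chr3:81036166-81036415 for Pdgfc and chr9:6168236-6168485 for Pdgfd, all on the plus strand.
Pdgfra: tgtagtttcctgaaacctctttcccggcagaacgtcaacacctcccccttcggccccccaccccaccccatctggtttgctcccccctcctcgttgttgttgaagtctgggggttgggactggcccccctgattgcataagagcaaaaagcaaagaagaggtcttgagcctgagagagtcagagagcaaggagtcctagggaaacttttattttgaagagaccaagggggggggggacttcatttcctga
Pdgfc: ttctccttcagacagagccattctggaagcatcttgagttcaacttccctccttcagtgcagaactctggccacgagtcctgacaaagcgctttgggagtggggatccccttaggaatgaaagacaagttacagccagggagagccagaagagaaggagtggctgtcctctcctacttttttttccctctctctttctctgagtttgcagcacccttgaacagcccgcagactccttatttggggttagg
Pdgfd: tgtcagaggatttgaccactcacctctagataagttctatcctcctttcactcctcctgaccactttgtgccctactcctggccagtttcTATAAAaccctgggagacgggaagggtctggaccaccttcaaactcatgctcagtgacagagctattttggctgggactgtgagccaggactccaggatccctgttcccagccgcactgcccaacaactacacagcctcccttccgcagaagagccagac
The motif TATAAA, the GC box GGGCGG and the motif CCAAT were searched on both strands. Of the 3 windows, the Pdgfd window alone held one of them, TATAAA. Over 32851 RefSeq promoter windows of the same length, 12.4% held TATAAA, 32.7% GGGCGG and 33.9% CCAAT. The Pdgfra, Pdgfc and Pdgfd windows held 4, 3 and 3 CpG dinucleotides, against a median of 6 over all windows. The 2 RefSeq starts of Pdgfa had 19 and 28 CpG and 1 and 2 GC boxes in their windows, which overlap annotated exons and are not printed.

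The 6 members were spread over the classes in different ways, as the plot of UMI shares by class shows. Mesenchymal cells held 24.4% of all UMIs but 86.2% of those of Pdgfra, 70.5% of Pdgfd, 70.1% of Pdgfrb and 58.8% of Pdgfa. They held 31.1% of Pdgfc UMIs and 0.828% of Pdgfb UMIs. Endothelial cells, with 4.17% of all UMIs, held 44.5% of Pdgfb and 18.4% of Pdgfd UMIs. Leukocytes held 49.9% of all UMIs, 53.5% of Pdgfc, 30.2% of Pdgfb and 11.9% of Pdgfa. The 46 mural cells held 0.268% of all UMIs and 155 of the 1105 Pdgfrb UMIs.

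**Figure D1:**
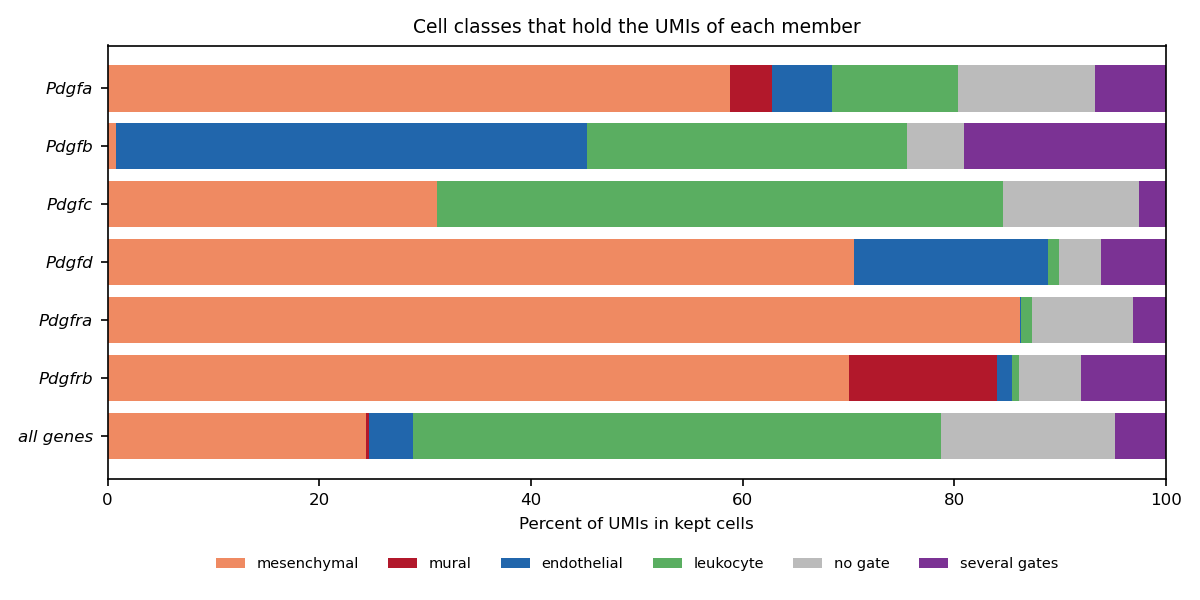
Stacked bars give the percent of each member's UMIs (and, in the lowest bar, of all UMIs) found in each gated class of the 9919 kept cells. Mesenchymal cells held 86.2% of Pdgfra UMIs and 0.828% of Pdgfb UMIs.

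Pdgfa, the ligand of the alpha receptor, was highest in mural cells, at 436 CPM (312 to 594), with 40 UMIs in 22 of 46 cells. Of these UMIs 32 were of suffix 4. The 8 mural cells of suffix 1 held 1 UMI, or 69.0 CPM (1.75 to 384.5), against 52.0 CPM in mesenchymal cells of that suffix. Mesothelial-like cells followed at 142 CPM (108 to 183). The fibroblast classes lay close together: 74.1 CPM (59.4 to 91.2) in ductal, 68.2 (58.7 to 78.9) in Col14a1 and 60.9 (51.5 to 71.6) in Col13a1 cells. Their pooled intervals overlapped, and the order turned with the suffix. Ductal cells were lowest in suffix 1, at 33.0 CPM against 64.2 in Col13a1 and 62.6 in Col14a1 cells. In suffix 4 they were highest, at 88.7 CPM against 62.5 and 72.0. Endothelial cells had 40.7 CPM, and 20 of their 58 Pdgfa UMIs lay in 7 cells of suffix 2. Mesenchymal cells as a whole had 71.6 CPM, 10.1 times (8.29 to 12.4) the 7.09 CPM of leukocytes. The ratio was 28.9 (7.67 to 244) within suffix 1, on 2 leukocyte UMIs, and 4.21 (3.24 to 5.55) within suffix 4.

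Among leukocytes, Pdgfa was concentrated in interstitial macrophage-like cells, the C1q-expressing tissue macrophages. These had 76.3 CPM (59.5 to 96.4), level with the fibroblasts, and 24.2 times (16.6 to 35.4) the 3.16 CPM of the other leukocytes. The 70 UMIs came from 35 of 151 cells. Suffixes 4 and 5 each had 55 such cells, with levels of 104 CPM (75.4 to 140) and 40.4 CPM (22.1 to 67.7). A set of 64 ungated cells with the same marker list, in which Ptprc had no UMI, held 74.9 CPM (46.4 to 115). Alveolar macrophage-like cells, by contrast, had 2.91 CPM and B cells 0.413 CPM. Megakaryocyte and platelet markers, whose cells carry PDGF, summed to 854 CPM in the interstitial macrophages, with Itga2b and Gp9 at 0; Pf4, one of that list, is also a leading gene of these macrophages. Among 89 ungated cells of the epithelial list, led by the surfactant gene Sftpc, Pdgfa stood at 93.8 CPM (69.4 to 124), with 49 UMIs in 30 cells.

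Pdgfb, whose product binds both receptors, was highest in endothelial cells, at 151 CPM against 0.480 CPM in mesenchymal cells. The ratio was 314 (121 to 1164), resting on 215 UMIs against 4. Counting cells of several gates in each class brought it to 64.0. Without suffix 4 mesenchymal cells had no Pdgfb UMI left, and with that 0 entered as 3 UMIs the ratio was 83.2 (28.0 to 407). The endothelial level was present under every suffix: 172, 149, 119, 127, 125 and 267 CPM for suffixes 1 to 6. Suffix 6 stood highest (193 to 362), and its interval lay above those of suffixes 3, 4 and 5. Aerocyte-like capillary cells, the thin cells that form the gas exchange surface, had 256 CPM (200 to 323), 1.88 times (1.31 to 2.69) the 137 CPM of general capillary-like cells. Vein-like cells had 89.7 CPM on 9 UMIs.

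In leukocytes Pdgfb reached 32.2 CPM (16.1 to 57.7) in nonclassical monocyte-like, 28.3 CPM in interstitial macrophage-like, 15.5 CPM in NK cell-like and 10.8 CPM in alveolar macrophage-like cells. The first pair did not differ beyond counting error, with a ratio of 1.14 (0.507 to 2.38). B cells had 0.825 CPM. Neither ductal, Col14a1 nor mural cells held a Pdgfb UMI. The level of 3 UMIs was 2.52 CPM in the 474 ductal and 1.12 CPM in the 718 Col14a1 cells, but 32.7 CPM in 46 mural cells. The exact intervals of a count of 0 reached 3.10, 1.38 and 40.25 CPM in the same order.

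Pdgfc, a ligand that needs proteolytic release, had separate sources among mesenchymal cells and leukocytes. Ductal cells held 74.1 CPM (59.4 to 91.2), with 88 UMIs in 74 of 474 cells, and all other mesenchymal cells 3.22 CPM, a ratio of 23.0 (14.4 to 38.2). Col13a1 and Col14a1 cells were at 1.66 and 2.25 CPM. Suffixes 1 and 4 gave ductal levels of 79.2 CPM (50.8 to 118) and 72.8 CPM (56.0 to 92.9). Ungated cells of the ductal list, which have fewer collagen UMIs, had 57.5 CPM (29.7 to 100.4).

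Alveolar macrophage-like cells were the second source of Pdgfc, at 29.3 CPM (25.0 to 34.2) with 161 UMIs, 11.3 times (7.62 to 17.3) the other leukocytes. Across suffixes 1 to 6 they had 42.3, 23.8, 11.8, 30.5, 30.6 and 7.35 CPM, the lowest pair on 4 and 1 UMIs. Interstitial macrophages had 19.6 CPM (11.6 to 31.0), not separable from them (ratio 1.50, 0.916 to 2.59). Pooled, mesenchymal cells and leukocytes were level: 13.3 against 11.2 CPM, a ratio of 1.19 (0.933 to 1.51). The ratio was 0.855 within suffix 1, 0.470 (0.345 to 0.638) within suffix 4 and 2.42 (1.53 to 3.71) without suffix 4. Alveolar macrophages were 443 of the 629 leukocytes of suffix 4 and 1064 of the 4273 of all suffixes. The part of this class mix in the ratios was not tested. Not one Pdgfc UMI was seen in 594 endothelial cells, with an interval up to 2.59 CPM, nor in mural cells or cells of the epithelial list.

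Pdgfd, which signals mainly to the beta receptor, was shared by endothelium and mesenchyme, with 3 UMIs in 4273 leukocytes (0.176 CPM). Aerocytes were highest at 84.1 CPM (53.3 to 126), 3.08 times (1.47 to 6.79) general capillary cells. Next came mesothelial-like cells at 43.2 CPM, Col14a1 cells at 36.7 CPM (29.8 to 44.8), lymphatic-like cells at 33.8 CPM on 3 UMIs and general capillary cells at 27.3 CPM, whose neighbours in this order did not separate. The 22 cells of the artery list, left out of the order, had 44.6 CPM on 2 UMIs. Their leading genes by fold began with the surfactant gene Sftpc and held no marker of the artery list. Ductal and Col13a1 cells had 13.5 and 9.12 CPM. Col14a1 cells stood 2.12 times (1.59 to 2.84) above other mesenchymal cells. Endothelial over mesenchymal cells as wholes gave 1.52 (1.10 to 2.08), which became 1.02 (0.657 to 1.56) without suffix 4, 0.614 (0.160 to 1.70) within suffix 1 and 2.01 (0.980 to 3.70) within suffix 4. Mural cells had 0 UMIs, with an interval up to 40.25 CPM.

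**Figure D2:**
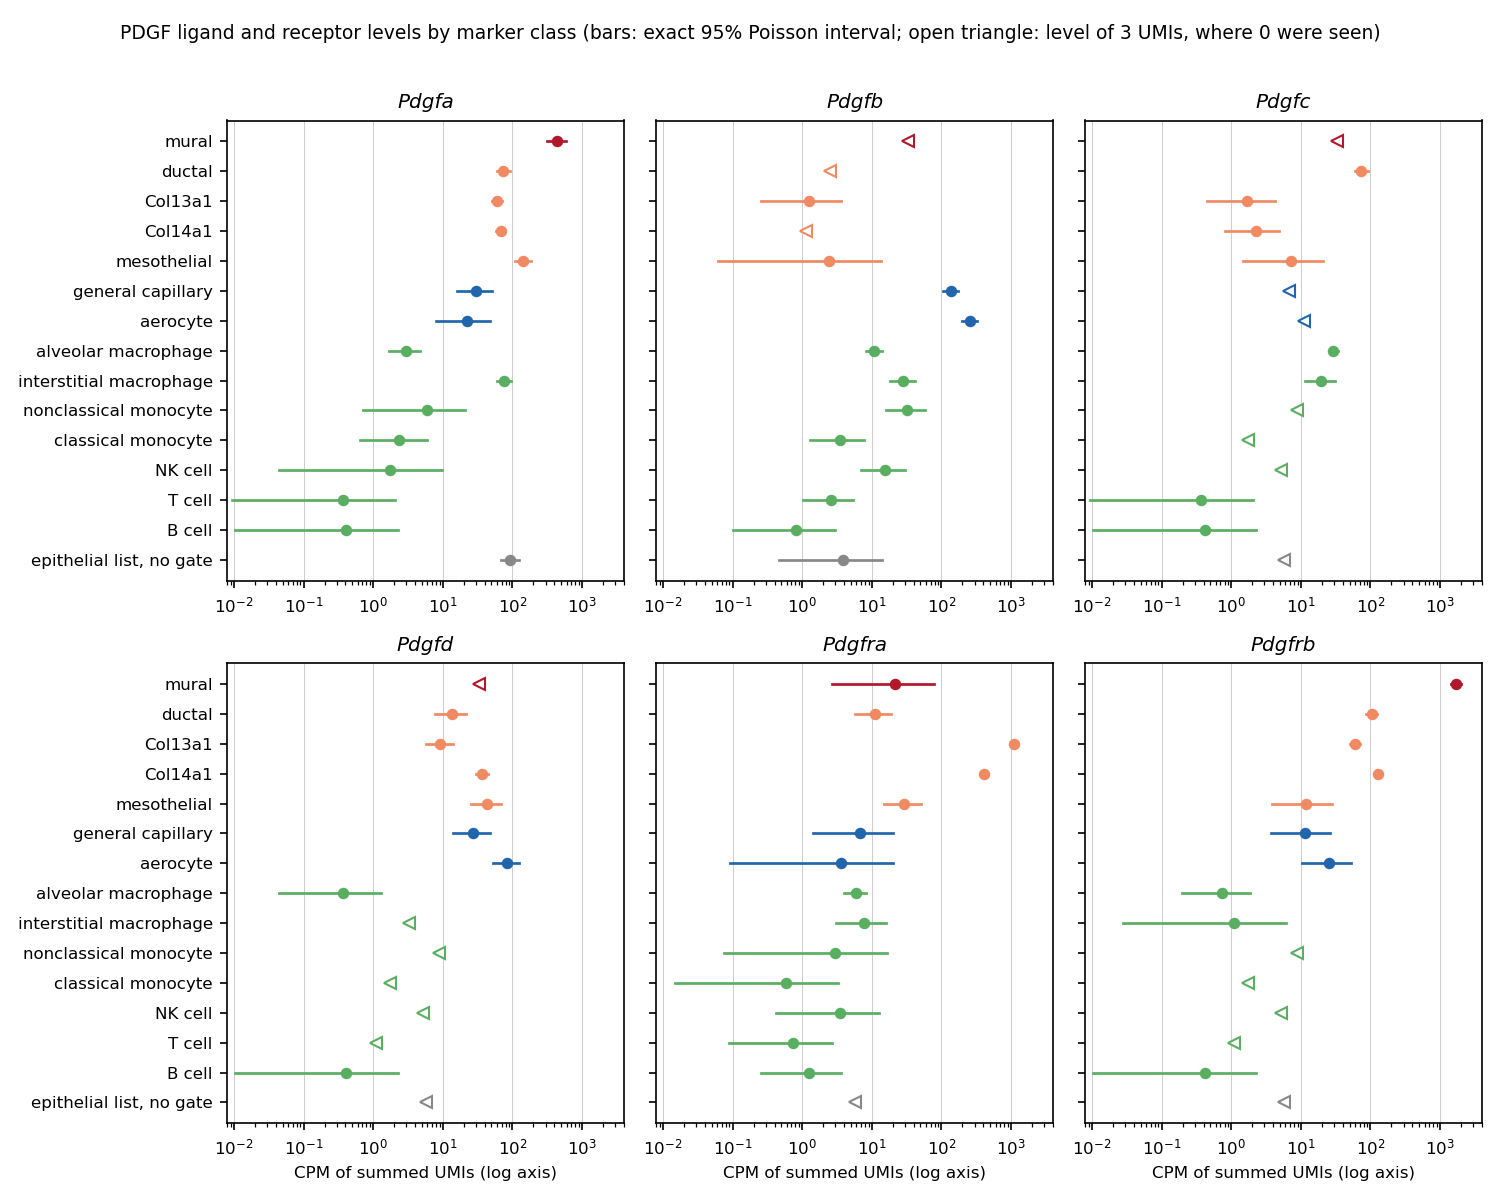
Points give each member's CPM (log axis) in 15 marker classes, with exact Poisson 95% intervals as lines; open triangles mark the level of 3 UMIs where a class held 0. Pdgfb peaked in aerocytes (256 CPM), Pdgfc in ductal cells (74.1 CPM), Pdgfra in Col13a1 cells (1088 CPM) and Pdgfrb in mural cells (1691 CPM).

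Pdgfra, the alpha receptor, marked all fibroblast classes except the ductal one. Col13a1 cells had 1088 CPM (1047 to 1131), with UMIs in 696 of 763 cells. The 20 Adh7 cells were level with them at 1088 CPM (860 to 1358). Col15a1 cells had 621 CPM (501 to 762) and Col14a1 cells 412 CPM (388 to 437). Ductal cells had 10.9 CPM (5.83 to 18.7), and the ratio of Col13a1 to ductal cells was 99.5 (58.1 to 187). With the 4 ductal cells called doublets put back, ductal UMIs went from 13 to 28 and the ratio became 47.1. The ductal level was low under both large suffixes, at 9.90 CPM in suffix 1 and 11.4 CPM in suffix 4. Mesothelial-like and mural cells had 28.8 and 21.8 CPM, the latter on 2 UMIs.

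Mesenchymal cells of suffixes 1 to 6 had 515, 573, 626, 554, 912 and 1002 CPM of Pdgfra, so the gene was present in the mesenchymal cells of each. Cells of the 2 highest were few, 38 in suffix 5 and 30 in suffix 6, and 28 and 20 of them were Col13a1 cells. The gene was also high outside the collagen gate: 150 ungated cells of the Col13a1 list had 1298 CPM (1174 to 1432). In leukocytes Pdgfra stood at 3.28 CPM and in alveolar macrophages at 5.83 CPM, of which 28 of 32 UMIs were in suffix 4, the suffix with most fibroblasts. Col1a2 and Col3a1 had 10.9 and 26.4 CPM in those macrophages; the part of RNA from other cells was not tested.

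Pdgfrb, the beta receptor, was highest in mural cells at 1691 CPM (1436 to 1980), with 155 UMIs in 40 of 46 cells. That was 18.2 times (15.2 to 21.7) the 92.8 CPM of mesenchymal cells and 13.2 times (10.8 to 16.0) the next class. Counting 20 cells that passed both the mural and endothelial gates, and others of several gates, in each class lowered the ratio to 7.31 (6.28 to 8.48). Within suffix 4 alone, 32 mural cells gave 17.1 (13.8 to 21.1). Mural cells with a Myh11 UMI, a smooth muscle myosin, had 1904 CPM and those without 1594 CPM. The 23 mural cells that also passed the collagen gate had 1368 CPM.

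Among fibroblasts, Pdgfrb was broad where Pdgfra was not. Col14a1 cells had 129 CPM (115 to 143), ductal cells 104 CPM (86.0 to 124) and Col13a1 cells 60.5 CPM (51.1 to 71.1). Ductal cells, low in Pdgfra, thus held 1.71 times (1.34 to 2.19) the Pdgfrb of Col13a1 cells. The order of the top pair changed by suffix, with 152 CPM (111 to 203) in ductal and 98.1 CPM (72.1 to 130) in Col14a1 cells of suffix 1, and 87.5 (69.1 to 109) and 136 CPM (121 to 153) in suffix 4. Mesothelial-like cells had 12.0 CPM and endothelial cells 10.5 CPM. Aerocytes had 25.6 CPM, on 7 UMIs in 3 cells. In leukocytes there were 8 UMIs in 4273 cells, or 0.469 CPM.

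To compare shares of cells across depths, each cell was thinned to 1000 UMIs. Pdgfra was then found in 63.8% (60.3 to 67.2) of Col13a1, 35.3% of Col14a1, 1.94% of ductal and 0.219% of B cells; unthinned shares were 91.2%, 71.6%, 2.53% and 0.322%. Pdgfrb was found in 69.0% (52.9 to 82.4) of mural, 11.5% of Col14a1, 10.6% of ductal, 5.79% of Col13a1 and 0% of 912 B cells. Its unthinned shares were 87.0%, 33.7%, 22.4%, 17.2% and 0.107%. Pdgfb was found in 27.3% of aerocytes and 14.6% of general capillary cells against 0.110% of B cells (unthinned 48.0%, 41 of 205 cells and 0.215%). Pdgfc was found in 7.78% of ductal cells and 2.94% of alveolar macrophages against 0% of B cells (unthinned 15.6%, 13.8% and 0.107%). B cells, taken as a class that should lack these genes, had a median of 2160 UMIs, near that of ductal (2466), Col13a1 (2827) and aerocyte (2383) cells. Only 34 and 17 of the 931 B cells were of suffixes 1 and 4, which held 164 and 307 of the 474 ductal cells. They therefore do not give the background of those suffixes. Within suffix 4, Pdgfra had 11.2 CPM in alveolar macrophages and 11.4 CPM in ductal cells. Whether the ductal Pdgfra UMIs came from other cells was not tested. Mural cells were shallower at 1768, and alveolar macrophages deeper at 5042.

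Setting ligand sources beside receptor levels gave different layouts for each chain. The alpha receptor was high in Col13a1, Adh7, Col15a1 and Col14a1 cells. Of its ligands, Pdgfa was present in these same classes at 60.9 to 69.7 CPM, and higher in mural and mesothelial-like cells. Lymphatic-like cells had 113 CPM (54.1 to 207.5, on 10 UMIs) and epithelial-list cells 93.8 CPM. Interstitial macrophages and ductal cells had 76.3 and 74.1 CPM. Pdgfb, whose product binds the alpha receptor too, was highest in aerocytes. Pdgfc was high in ductal cells, which had little Pdgfra, and low in the Pdgfra-rich Col13a1 and Col14a1 classes. Alveolar macrophages were its second source, at 29.3 CPM. In thinned mesenchymal cells, 11.4% of 44 cells with a Pdgfc UMI had one of Pdgfra, against 38.1% of the rest. Within ductal cells that difference was not seen, with shares of 5.56% of 36 cells (2 cells) and 1.64%. The beta receptor was highest in mural cells. Pdgfb and Pdgfd, whose products bind it, had 0 UMIs in mural cells and 256 and 84.1 CPM in aerocytes. Pdgfd and Pdgfrb were both found in Col14a1 cells, but in the thinned counts none of 22 cells with Pdgfd had a Pdgfrb UMI, against 11.8% of the rest. Unthinned, 35.2% of 88 cells with Pdgfd had one and 33.5% of the rest did. In Col13a1 and ductal cells the unthinned shares were 4.76% against 17.5% and 6.25% against 22.9%, each on 1 cell with both. RNA levels alone do not show ligand release or receptor binding, which were not measured.

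Cells of the Col14a1 class held both receptors. Thinned, Pdgfrb was found in 11.4% of 246 Col14a1 cells with Pdgfra and in 11.5% of those without. In Col13a1 cells the shares were 5.57% of 485 and 6.18%. Unthinned, the shares were 37.0% against 25.5% in Col14a1 cells and 17.7% against 11.9% in Col13a1 cells. Mural cells held Pdgfa together with Pdgfrb in 11 of 42 thinned cells. Pdgfrb was found in 78.6% of the 14 with Pdgfa and 64.3% of the rest. No within-class exclusion of one receptor by the other was detectable at this depth.

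Suffixes 1 and 4, the 2 with enough mesenchymal cells, are set side by side in the plot of members by suffix. Pdgfa in ductal cells was 88.7 CPM in suffix 4 and 33.0 CPM in suffix 1, a ratio of 2.69 (1.39 to 5.82). In Col13a1 and Col14a1 cells the Pdgfa ratios were 0.975 (0.498 to 2.18) and 1.15 (0.773 to 1.76). Pdgfrb went opposite ways, at 0.577 (0.395 to 0.850) in ductal and 1.39 (1.02 to 1.93) in Col14a1 cells. Pdgfra was lower in suffix 4 in both Col13a1 (0.772, 0.666 to 0.900) and Col14a1 cells (0.754, 0.653 to 0.873). Over all mesenchymal cells the Pdgfra ratio was 1.08 (0.988 to 1.17). The class mix behind that ratio differed. Suffix 4 had 634 Col13a1 and 307 ductal cells among 1818 mesenchymal cells, and suffix 1 had 65 and 164 among 546. The part of this mix in the ratio was not tested. The suffixes differ in sex, and the gate and day of each are not known, so what lies behind the ratios within classes cannot be told apart.

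**Figure D3:**
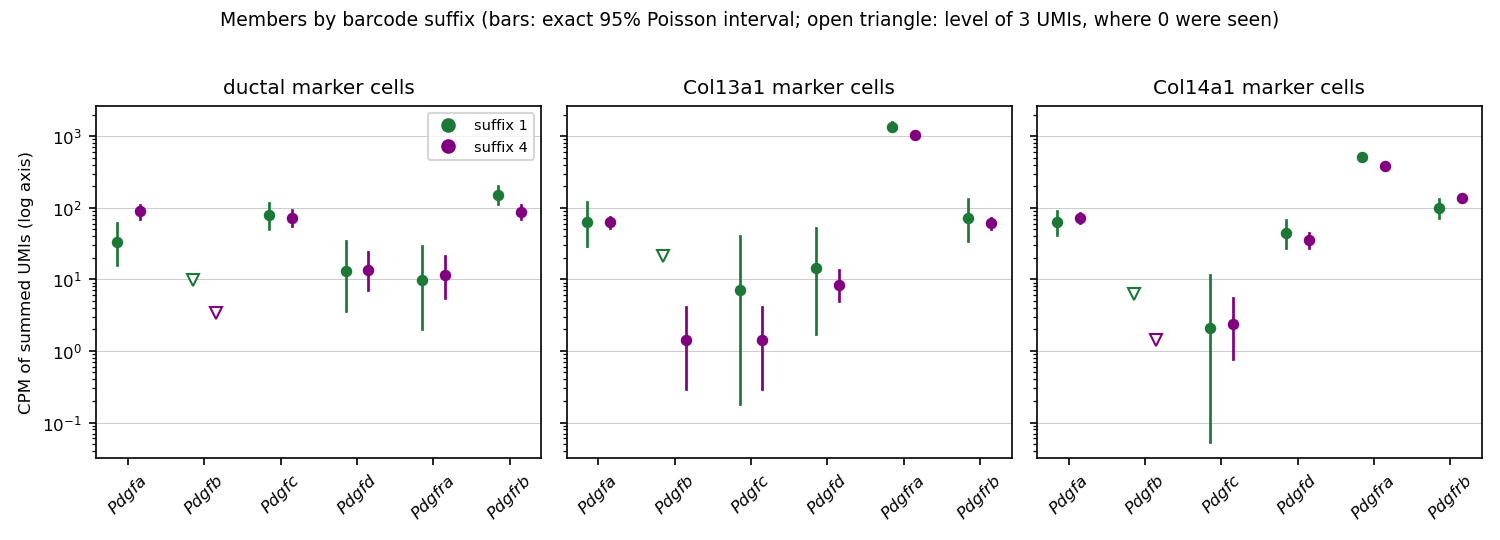
Points give each member's CPM (log axis) in ductal, Col13a1 and Col14a1 cells of barcode suffix 1 and suffix 4, with exact Poisson 95% intervals; open triangles mark the level of 3 UMIs where 0 were seen. Ductal Pdgfa was 33.0 CPM in suffix 1 and 88.7 CPM in suffix 4, while ductal Pdgfc intervals overlapped.

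Members were also counted at a fold of 2 or more between classes, over genes with 100 or more UMIs. From mesenchymal to mural cells, 2 of 6 members were higher (Pdgfa and Pdgfrb; 11.9% of all genes) and 1 was lower (Pdgfra; 3.6% of all genes). From mesenchymal to endothelial cells 1 was higher (Pdgfb; 19.8%) and 3 were lower (Pdgfc, Pdgfra and Pdgfrb; 14.8%). In leukocytes 1 was higher than in mesenchymal cells (Pdgfb; 18.2%) and 4 were lower (all but Pdgfb and Pdgfc; 25.6%). Against other mesenchymal cells, ductal cells had 1 higher (Pdgfc; 5.77%) and 1 lower (Pdgfra; 10.6%). Col13a1 cells had 2 higher (Pdgfra and, on 3 UMIs against 1 entered as 3, Pdgfb at 2.45; 5.75%) and 2 lower (Pdgfc and Pdgfd; 8.01%). Col14a1 cells had 1 higher (Pdgfd; 3.57%) and 1 lower (Pdgfc; 7.73%). Mesothelial-like cells had 1 higher (Pdgfa; 10.2%) and 2 lower (both receptors; 11.2%). Between Col13a1 and ductal cells Pdgfra was higher (11.4%) and Pdgfc lower (9.1%). Aerocytes had 2 above general capillary cells (Pdgfd and, on 7 UMIs against 5, Pdgfrb; 11.0%) and 0 below (10.3%). Alveolar macrophages had 3 above other leukocytes (Pdgfc and, at low levels, both receptors; 20.5%) and 1 below (Pdgfa; 14.5%). Interstitial macrophages had 3 above (Pdgfa, Pdgfb and, on 7 UMIs, Pdgfra; 6.9%) and 0 below (10.6%). With 6 members, these counts say little against the shares of all genes.

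A list of 52 other genes of the pathway, of which 48 had 100 UMIs or more, was read in the same contrasts. Among 5 measured genes of ligand activation and carriers, 1 was higher and 1 lower in ductal than in other mesenchymal cells (5.77% and 10.6% of all genes). The higher one was Pcsk5, a proprotein convertase, at 274 CPM, 7.72 times (6.53 to 9.13) the other mesenchymal cells. Ductal cells also had the most Pdgfc, and whether Pcsk5 acts on its product was not tested. Sparc, a matrix protein that binds PDGF-B, was 178 times lower in leukocytes than in mesenchymal cells, and Furin, another convertase, was 3.0 times higher there. Plat, whose product tPA can activate PDGF-C, had 1.58 CPM in leukocytes and 118 CPM in mesenchymal cells. Among coreceptor genes, Nrp1 was 2.60 times higher in endothelial than in mesenchymal cells (979 CPM) and 3.35 times (2.93 to 3.85) higher in aerocytes than in general capillary cells. Nrp1 was 4.62 times lower in ductal than in other mesenchymal cells. Of 3 measured coreceptor genes it was the 1 lower there, and 1 was higher (10.6% and 5.77% of all genes). Lrp1, a receptor linked to PDGF receptor trafficking, was 38.9 times lower in endothelial cells, and the receptor-like Pdgfrl had 1 UMI in them. Furin, Plat and the endothelial value of Nrp1 fall outside the rule for named genes and were chosen after their values were seen.

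Among 24 docking and signalling genes, 7 were higher in mural than in mesenchymal cells and 1 was lower, where 11.9% and 3.6% of all genes were. The largest folds were Nck2 (11.5, 5.32 to 22.3), Slc9a3r2 (8.77) and Src (7.38, 3.73 to 13.3), on 10, 27 and 12 mural UMIs. Slc9a3r2, a scaffold that binds the tail of PDGF receptors, was also 20.8 times (18.2 to 23.9) higher in endothelial cells, and its relative Slc9a3r1 was 57.0 times (42.3 to 77.7) higher in mesothelial-like cells. In endothelial cells 7 docking genes were higher and 1 lower (19.8% and 14.8% of all genes), Plcg1 at 5.24 times among them. Of 10 shut-off genes, 2 were higher and 2 lower in Col13a1 cells (5.75% and 8.01% of all genes): Dusp6 and Cblb at 2.27 and 2.24 times, and Socs3 and Ptprj at 0.382 and, on 2 UMIs entered as 3, 0.204 times the other mesenchymal cells. In ductal cells 2 were higher and 1 lower (5.77% and 10.6% of all genes): Socs3 and Spry1 at 3.93 and 2.30 times, and Dusp6 at 0.363 times. Of 6 immediate response genes, 3 were higher and 0 lower in ductal cells (Fos, Egr1 and Myc; 5.77% and 10.6% of all genes), with Fos at 3857 CPM and Myc 5.94 times (4.29 to 8.23) the other mesenchymal cells. Spry1, Fos, Egr1, the ductal value of Dusp6 and the Col13a1 value of Socs3 also fall outside the rule for named genes. Immediate response genes also respond to tissue dissociation, whose part was not tested.

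Over the whole list, 9 genes were higher and 4 lower in mural cells, 11 and 9 in endothelial cells, 7 and 17 in leukocytes, 7 and 6 in ductal, 3 and 6 in Col13a1 and 0 and 2 in Col14a1 cells. The shares of all genes, higher and lower, were 11.9% and 3.6%, 19.8% and 14.8%, 18.2% and 25.6%, 5.77% and 10.6%, 5.75% and 8.01%, and 3.57% and 7.73% in the same order. The endothelial counts of 48 lie close to the shares of all genes. The medians of the log2 ratio of CPM + 10 were -0.14 for the list and -0.05 for all 12059 genes in the mural contrast. In leukocytes they were -0.30 and -0.10, and in alveolar macrophages against other leukocytes 0.30 and 0.05. In the mural contrast the list's median lay close to that of all genes, while single genes went both ways.

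**Figure D4:**
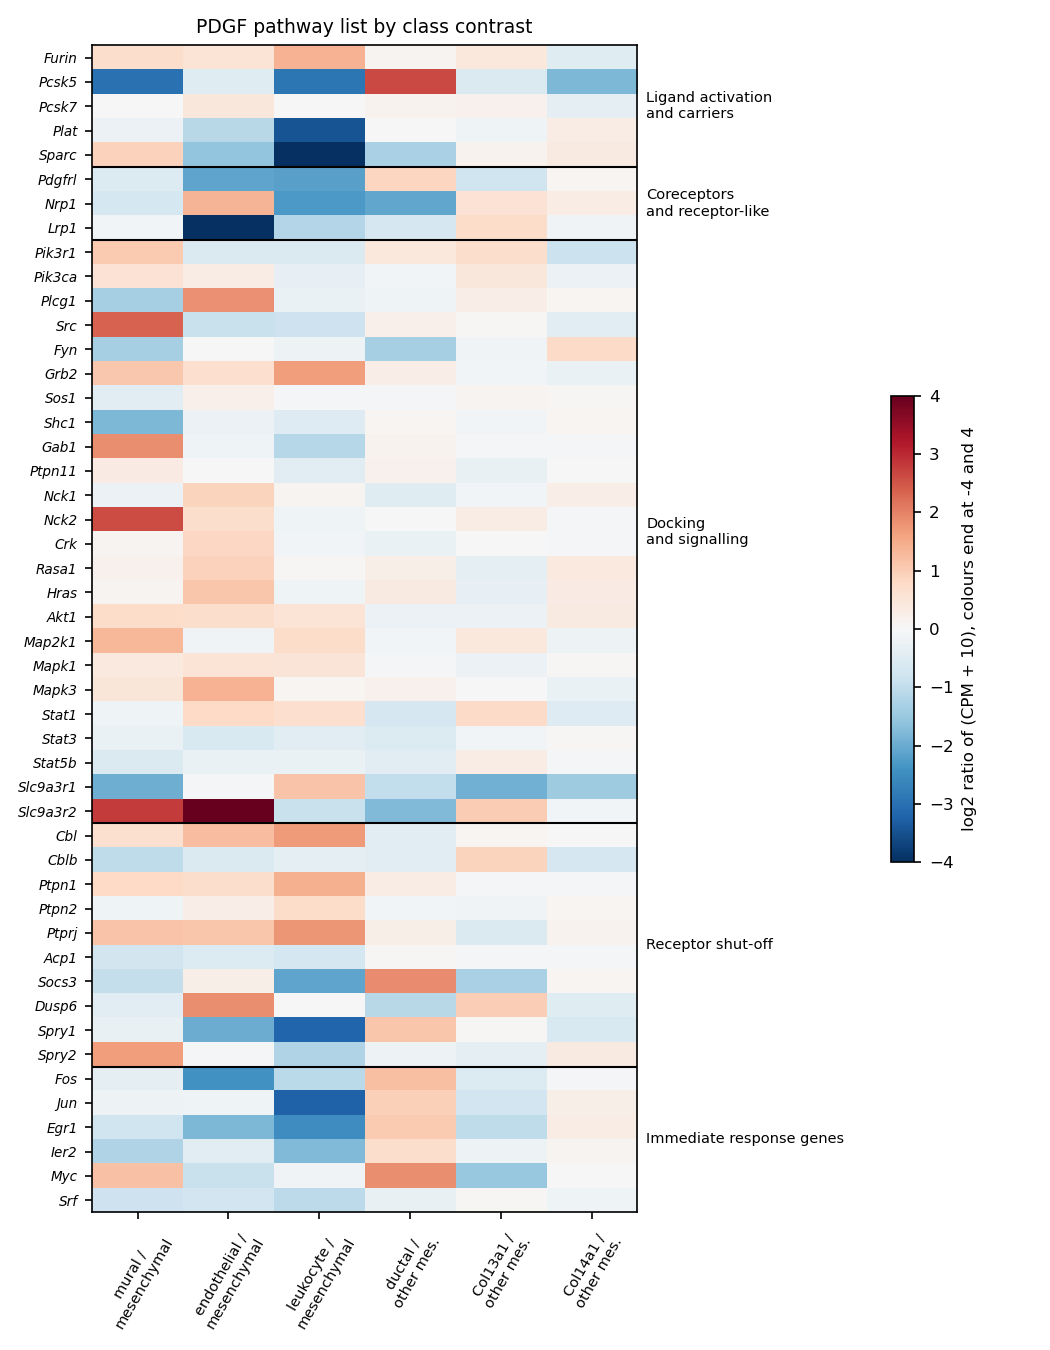
Colours give the log2 ratio of CPM + 10 for the 48 measured pathway genes (rows, by role) in 6 class contrasts (columns). Pcsk5 was 7.72 times higher in ductal cells, and Slc9a3r2 was 20.8 times higher in endothelial cells.

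The genes whose levels ran most like each member's were taken over 17 classes and subtypes, which share libraries and in part cells, by Pearson correlation of log2(CPM + 10). For Pdgfra these were Lox (0.99), C7 (0.99), Svep1, Asap3 and Frem1, all highest in Col13a1 cells; Lox, a collagen cross-linking enzyme, reached 182 CPM there. For Pdgfrb, without the mural class, they were B4galt2, Sspn, Tnxb, Snrpn and Nexn (0.98 to 0.97). With mural cells added to 14 subtypes, a choice made after seeing the data, they were Nr2f1 (0.98), Arhgap42, Fat1, Snai1 and Trpc1, all highest in mural cells. For Pdgfb they were Lrrc8b (0.96), Arap3, Clec1a, Cbr2 and Dpf2. For Pdgfd they were Glis2, Layn, Frmd6, Vangl1 and Arhgef10 (0.97 to 0.95), all highest in aerocytes. Pdgfc ran with Lhfpl2 (0.96), Enpp1, Snx24, Galm and Kcnk3, of which Lhfpl2 had 186 CPM in ductal cells. Pdgfa, without the mural class, ran with Rab13, Gas6, Mmp14, Zfp248 and Smo (0.93). With mural cells added they were Irak1bp1, Dcbld2, Tgfb2, Src and Mmp14 (0.93 to 0.92), with 1 gene in both. Some listed genes were low even in their highest class and rest on few UMIs. Examples are Irak1bp1 (43.7 CPM in mural cells), Zfp248 (14.4 CPM in mesothelial-like cells) and Layn (32.9 CPM in aerocytes). These are descriptions over few classes, in which many genes share a shape.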

How the data were processed

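The authors' deposited counts are whole UMI counts per gene and barcode, not normalized, for 27998 genes and 10410 barcodes. The tools and build named, per the submitters' processing notes, were Cell Ranger 1.3.0, STAR 2.5.1 and mm10; how the authors called cells was not given. The normalized table was not used here. Barcodes needed at least 500 genes and no more than 10% mitochondrial UMIs (9994 kept), and 75 doublets (0.751%) called by Scrublet within each suffix (scanpy 1.11.5) were removed. Counts were summed per class and divided by the class total (scipy 1.17.1, numpy 2.4.6). A class under 3 UMIs entered fold calls at 3 UMIs, so it could be called lower and never higher, and no fold was formed where both were under 3. Fold calls, intervals and likeness were tested on simulated data. The simulated counts were Poisson, as the intervals assume, without spread between cells or suffixes. These runs therefore checked the code only. Named genes were the 6 members, up to 3 genes of the pathway list with the largest folds in each direction of a contrast, and the 5 genes most like each member. The members, lists and rules were chosen with earlier results of these data known. Alternatives were other cell filters, doublets kept, cells of several gates counted in each, stricter gates, means over cells, single suffixes and thinning depths. Suffixes carry no sample name, so labelled samples were not compared. Promoter sequences are from RefSeq (GRCm38.p6).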

Additional observations from a re-analysis of the deposited data

Results flagged for a closer look

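Cells outside the gated classes carried every member above the level of 3 UMIs, and the main comparisons do not use them. In the 2202 cells that passed no gate, the levels were 23.3 CPM of Pdgfa, 4.63 CPM of Pdgfb, 8.18 CPM of Pdgfc, 1.96 CPM of Pdgfd, 91.4 CPM of Pdgfra and 11.4 CPM of Pdgfrb. Of the 514 Pdgfra UMIs there, 402 lay in the 150 cells of the Col13a1 list. In the 289 cells that passed several gates, the levels were 41.5 CPM of Pdgfa, 56.1 CPM of Pdgfb, 5.49 CPM of Pdgfc, 10.4 CPM of Pdgfd, 103 CPM of Pdgfra and 54.3 CPM of Pdgfrb. Of their 92 Pdgfb UMIs, 56 were in 177 cells with both endothelial and leukocyte markers. The 20 cells that passed the mural and endothelial gates together had 311 CPM of Pdgfrb, 168 CPM of Pdgfa and 112 CPM of Pdgfb. Whether cells of several gates are doublets was not tested beyond the doublet calls already used.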

How the results depend on the processing

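Of 101 alternative values for 6 ratios and 6 shares of cells, 74 lay within the interval of the reported value and 27 lay outside it. Every value of the Pdgfrb, Pdgfra, Pdgfb and Pdgfa ratios stayed above 2-fold; those of Pdgfc and Pdgfd crossed 1. Requiring 1000 genes and 5% mitochondrial UMIs at most gave 14.2 for Pdgfrb in mural over mesenchymal cells. Counting cells of several gates in each class gave 7.31 for that ratio, 64.0 for Pdgfb in endothelial over mesenchymal cells and 8.23 for Pdgfa in mesenchymal cells over leukocytes. For Pdgfra in Col13a1 over ductal cells, keeping doublets gave 47.1 and no cell filter 47.2, since 15 ductal UMIs came back. Stricter gates gave 12.6 for the Pdgfa ratio. Means of per-cell CPM gave 14.3 for Pdgfa and 1.77 for Pdgfc in mesenchymal cells over leukocytes. Without suffix 4, Pdgfb was 83.2 (28.0 to 407, 0 mesenchymal UMIs entered as 3), Pdgfa 12.6, Pdgfc 2.42 and Pdgfd in endothelial over mesenchymal cells 1.02. Within suffix 1 these were 69.3 (21.7 to 353, again with 0 entered as 3), 28.9, 0.855 and 0.614. Within suffix 4, Pdgfa was 4.21 and Pdgfc 0.470. Except for the values with 0 entered as 3 and the returned doublets, the cause was not tested. Mural cells were under 50 in every suffix, so their within-suffix value, added after seeing the data, uses 32 cells. Shares thinned to 2000 UMIs were 14.1% (Pdgfc, ductal), 19.1% (Pdgfd, aerocyte) and 81.3% (Pdgfra, Col13a1). Not thinned, they were 15.6%, 21% and 91.2%, with 48.0% for Pdgfb in aerocytes and 87.0% for Pdgfrb in mural cells. Depth limits the ligands most: Pdgfd had 278 UMIs in all, and a count of 0 in 46 mural cells has an interval up to 40.25 CPM. No paired analysis was possible because the table pools all samples and none has replicates.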
